A study of Danio rerio with 34 samples.

Results

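The jac genes of zebrafish encode small lectins built on the jacalin fold. They were taken as every gene whose symbol is jac followed by a number, which gave 9 of the 35117 genes counted (27000 of which have a symbol): jac1, jac2, jac3, jac4, jac6, jac7, jac8, jac9 and jac11. Of these, jac2 (ENSDARG00000056166) and jac7 (ENSDARG00000039100) had enough counts to enter the fit across genes, and the other 7 did not. The family was chosen by the measured counts themselves, since jac2 and jac7 had some of the largest fitted differences between exposed and control testis in these same 18 libraries. Their levels and fitted changes are therefore given as a description, with no test.

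Jacalin is a sugar-binding protein first known from jackfruit seeds, and proteins of its fold bind mannose or galactose residues on glycans. In mammals the fold occurs in ZG16, a lectin of pancreatic zymogen granules and intestinal goblet cell mucus. In zebrafish, aep1 (also called dln1, and jac5 by its RefSeq synonym) joins a jacalin-type lectin module to a pore-forming module and binds high-mannose glycans. The labels say nothing of a role of the jac genes in the testis.

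The libraries came from testes of adult zebrafish. Fish were kept with the carrier DMSO, or exposed to PCB126 at 3 nM or 10 nM. This polychlorinated biphenyl acts like dioxin, through the aryl hydrocarbon receptor (AHR). Exposure took 24 h, and testes were sampled after 7 days in clean water, with 6 libraries per group that the series calls biological replicates. Strain, age and any pooling of fish are not given in the labels. Bisulfite data of the series are not used here, since they were read as group means of regions that could not be placed at the jac genes.

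The shallowest library held 16243660 counts and the deepest 29849891. CYP1A1 (zebrafish cyp1a), the standard AHR target, marked the exposure: it lay between 2.43 and 4.85 counts per 1000000 (CPM) in DMSO, 409 and 1001 at 3 nM and 815 and 2543 at 10 nM. The summed CPM of 21 genes that define testis germ and somatic cells lay between 9927 and 12978 in every library, with 0 of them at 0 counts. Single genes changed: 2 fell and 1 rose at 10 nM against DMSO, where 3.44% and 7.4% of all genes did. CYP17A1 went from 98.4 ± 42.7 CPM in DMSO to 37.4 ± 18.7 at 10 nM (SD, n = 6 each). Its log2 difference was -1.39 ± 0.31 (SE, edgeR quasi-likelihood test, adjusted p = 0.0147). That of sycp2 was -0.42 ± 0.13 (adjusted p = 0.0495) and that of pou5f3 1.04 ± 0.30 (adjusted p = 0.0344). A principal component analysis set 5 exposed libraries away from the other 13 on its first axis (39.7% of the variance), namely 3 nM replicates 4 and 6 and 10 nM replicates 1, 5 and 6. Fits without these 5 libraries keep 3 nM replicates 1, 2, 3 and 5 and 10 nM replicates 2, 3 and 4. The 5 were picked in these same data, so that choice and the smaller groups can both lower the number of calls. For the jac genes, 10 nM replicate 6 stood apart from the other 17 by itself, so the 10 nM levels and fitted changes of jac2 and jac7 are given with and without it. It alone held 89.9% of all jac counts of the 18 libraries.

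jac2 was close to the detection limit in control testis and exceeded 3 counts in every exposed library. In DMSO the 6 libraries held 1 to 6 counts each, with a median of 2.5. In CPM the lowest, median and highest were 0.0592, 0.0891 and 0.209. A count of 3, the level taken as the floor of detection, equals 0.0914 to 0.194 CPM depending on the library, and 2 of the 6 DMSO libraries exceeded 3 counts. At 3 nM the libraries held 19 to 256 counts with a median of 80.5, which is 0.746, 3.02 and 10.9 CPM for the lowest, median and highest. Every 3 nM library thus lay above every DMSO library, and the lowest of them was 3.56 times the highest DMSO value. Of the 24053 genes in the fit, 247 showed such separation upward (1.03%), which is given here only as background because this contrast is among those that led to the choice of jac2.

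At 10 nM jac2 spread over more than 3 orders of magnitude. Replicates 1 to 6 had 3.80, 0.177, 2.07, 0.505, 12.0 and 326 CPM, in that order. Replicate 6 held 7451 counts, 27.2 times the CPM of the next highest library of any group. Replicate 2, with 4 counts, lay inside the DMSO range, so the 10 nM and DMSO groups overlapped; upward separation without overlap was seen in 2.93% of genes for that comparison. The DMSO mean was 0.107 ± 0.0553 CPM, the 3 nM mean 3.92 ± 3.70 and the 10 nM mean 57.3 ± 131 (SD, n = 6 each). Without replicate 6 the 10 nM mean was 3.70 ± 4.83 CPM (SD, n = 5), just below that of 3 nM, so the order of the means of the exposed groups turned with that library. The 3 nM and 10 nM values overlapped (0.54% of genes were separated upward there) and their medians, 3.02 and 2.93 CPM, lay closer than the spread of either group.

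The fitted log2 difference of jac2 was 5.09 ± 1.67 (SE) for 3 nM against DMSO, 8.96 ± 1.77 for 10 nM against DMSO and 3.88 ± 1.29 for 10 nM against 3 nM. Without 10 nM replicate 6 the last 2 became 5.00 and -0.10. The difference between the doses therefore rested on 1 library. That between 3 nM and DMSO did not, since it stayed between 4.45 and 5.38 whichever library was left out. Its SE did depend on 10 nM replicate 6, as all groups share 1 estimate of spread in the fit. Summed over libraries, jac2 had 33.4 times the CPM at 3 nM that it had in DMSO (95% interval 20.9 to 56.7) and 26.4 times at 10 nM without replicate 6 (16.4 to 45.0). These exact binomial intervals rest on 18 counts in DMSO and cover counting error only, not the spread between fish. In bulk tissue a change in the number of cells that express a gene and a change in RNA per cell cannot be told apart, and this holds for every result below.

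jac7 was measurable in all 18 libraries, and its DMSO and exposed ranges overlapped. In DMSO it held 8 to 30 counts, with 0.279, 0.469 and 1.06 CPM as the lowest, median and highest. At 3 nM it held 13 to 56 counts, and the corresponding values were 0.506, 1.05 and 1.80 CPM. The lowest 3 nM library was at 0.476 times the highest DMSO library, and that DMSO library exceeded the 3 nM median. At 10 nM replicates 1 to 6 had 6.36, 0.575, 1.19, 0.909, 2.33 and 281 CPM. Replicate 6, with 6433 counts, was again far above the rest, at 44.2 times the next highest library, 10 nM replicate 1.

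The fitted log2 difference of jac7 was 0.92 ± 1.31 (SE) for 3 nM against DMSO, 6.48 ± 1.43 for 10 nM against DMSO and 5.56 ± 1.35 for 10 nM against 3 nM. Without 10 nM replicate 6 the last 2 became 2.04 ± 0.55 and 1.13 ± 0.53, and the first 0.91 ± 0.53. The SE of the first thus also depended on that library. The DMSO mean was 0.545 ± 0.276 CPM, the 3 nM mean 1.02 ± 0.483 and the 10 nM mean 48.7 ± 114 (SD, n = 6 each), or 2.27 ± 2.38 without replicate 6 (SD, n = 5). Neighbouring groups in that order overlapped, and their means lay within the SD of the higher group of each pair. Among the 24053 log2 differences for 10 nM against DMSO, where 10.8% of genes were called at an adjusted p under 0.05, jac2 ranked 2 and jac7 ranked 5 from the top. For 3 nM against DMSO, where 0.208% were called, the ranks were 20 and 1150. These ranks restate the values by which the genes were picked.

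**Figure D1:**
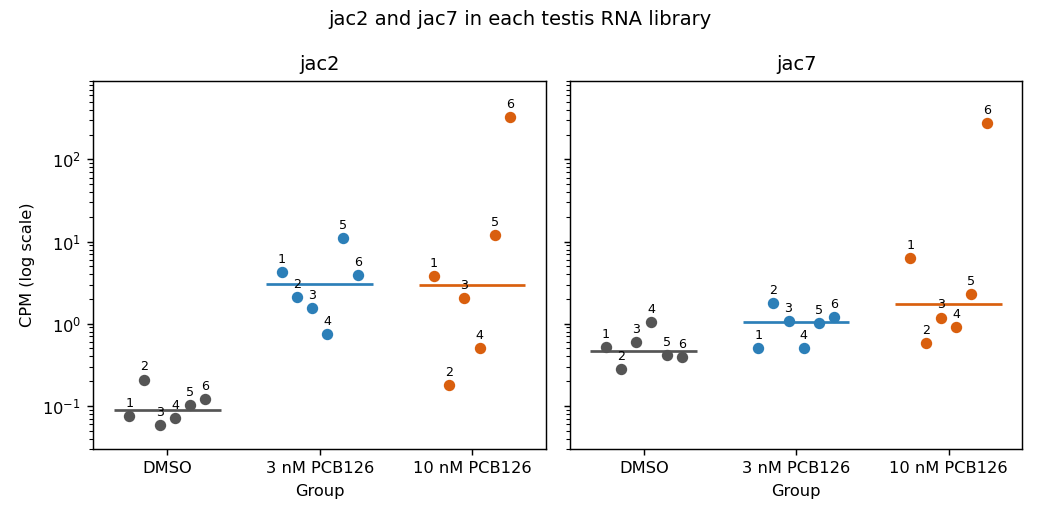
CPM of jac2 (left) and jac7 (right) on a log axis in the 6 DMSO, 6 3 nM and 6 10 nM libraries, with replicate numbers beside the points and a line at each group's median. All 3 nM points of jac2 lie above all DMSO points, 10 nM replicate 2 lies in the DMSO range, and 10 nM replicate 6 lies far above the other 17 libraries for both genes.

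The balance between the pair is given as another view of the same counts. jac7 supplied 81.0% ± 13.4 of the counts of jac2 and jac7 together in DMSO, with a range of 57.1 to 93.8% (SD, n = 6). At 3 nM it supplied 28.4% ± 16.5, from 8.57 to 46.3% (SD, n = 6). The DMSO and 3 nM ranges did not overlap. That largely restates the difference of jac2, which was picked for its exposed levels and held 1 to 6 counts per DMSO library. At 10 nM the share was 50.4% ± 21.9 and ran from 16.3 to 76.5% (SD, n = 6), and in replicate 6 it was 46.3% (95% Wilson interval 45.5 to 47.2, counting error only). Without replicate 6 the 10 nM mean was 51.2% ± 24.4 (SD, n = 5). The share uses raw counts, which depend on the length of each gene, so it compares groups and not the molar amounts of both RNAs.

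The other 7 jac genes were rare. jac3 (ENSDARG00000098097) held 0 to 2 counts per DMSO library and 0 to 9 at 3 nM. At 10 nM replicates 1 to 5 held 1 to 12 counts and replicate 6 held 730, or 31.9 CPM, which was 41.1 times the next highest library. Summed over libraries, jac3 had 5 counts in DMSO, 28 at 3 nM and 23 at 10 nM without replicate 6. The ratio to DMSO was 5.70 at 3 nM (95% exact binomial interval 2.17 to 18.9) and 6.64 at 10 nM without replicate 6 (2.47 to 22.3), for counting error only. In single libraries jac3 exceeded 3 counts in 0 of 6 DMSO, 4 of 6 3 nM and 3 of 6 10 nM libraries.

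jac8, jac9 and jac6 shared the peak in 10 nM replicate 6 at a lower level. jac8 (ENSDARG00000076958) had 38 counts there and at most 4 in each of the other 17 libraries. jac9 (ENSDARG00000074983) had 14 counts there and at most 3 elsewhere, and jac6 (ENSDARG00000076530) had 9 and at most 2. In the DMSO, 3 nM and remaining 10 nM libraries these genes lay around the floor of 3 counts, so differences among those groups were not detectable at this depth.

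jac1, jac4 and jac11 did not follow. jac1 (ENSDARG00000092521) and jac11 (ENSDARG00000076388) had 0 counts in 10 nM replicate 6, and the floor of 3 counts there equals 0.131 CPM. jac1 reached its highest value, 15 counts, in 10 nM replicate 4, and jac11 reached 7 counts in 3 nM replicate 1. jac4 (ENSDARG00000092352) had 6 counts in 10 nM replicate 6 and its maximum of 19 in 3 nM replicate 4. Thus 6 of the 9 jac genes had their highest CPM in 10 nM replicate 6. So did 10.8% of the genes in the fit and 9.53% of the counted genes outside it. This count is a description, since jac2 and jac7 were picked for differences that this library enlarged and close copies may share reads.

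**Figure D2:**
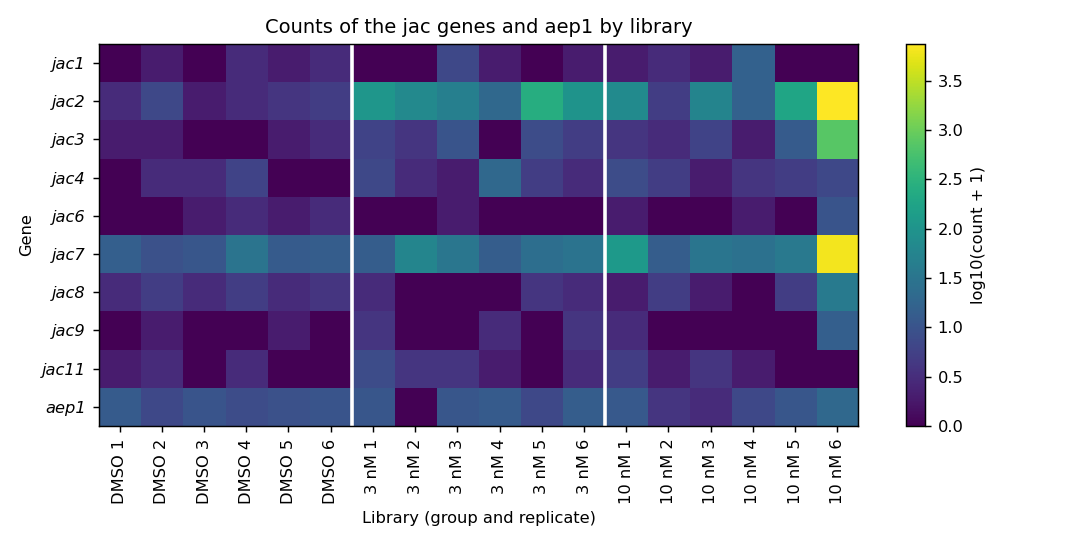
Counts of the 9 jac genes and of aep1 in each library, as log10(count + 1) by colour, with white lines between the groups of 6 DMSO, 6 3 nM and 6 10 nM libraries. jac2 is higher in the exposed libraries than in DMSO except in 10 nM replicate 2, and jac2, jac3, jac7, jac8, jac9 and jac6 all peak in 10 nM replicate 6 while jac1 and jac11 are at 0 there.

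Most jac genes sit together in the genome. In the gene order of the RefSeq annotation of GRCz12tu, a different assembly from the GRCz10 build of the counts, chromosome 7 carries 16 entries in a row from jac7 to jac3. Of these, 15 are protein coding and 9 are named jac. The run also holds aep1 and the natterin-like genes ntrnl2, ntrnl3 and ntrnl4, whose family is named after a fish venom protein with an aerolysin-type module. jac10 lies in the run but was not matched to a counted gene by name, and jac2 was not matched in that annotation, so its position is not given. Copies that resemble one another can share or lose reads of 50 bases, and the labels do not say how the counting treated them, so values of single members are uncertain to that extent.

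Of the 16 entries, 13 matched a counted gene. Of the 13, 7 had their highest CPM in 10 nM replicate 6, beside 10.8% of the genes in the fit and 9.53% of the counted genes outside it. The 7 were jac7, aep1, ntrnl4, jac6, jac9, jac8 and jac3. Of these, jac7 was picked in part through that library, and aep1 had 19 counts there and at most 13 elsewhere. ntrnl4 had 137 counts in that library and at most 6 in any other. Other genes of the run differed: ntrnl2 had 2 counts there and up to 25 elsewhere, and zgc:172143, next to jac7, had 2 there and up to 17 elsewhere. In the order of the run, jac7 and aep1 lay at the start with zgc:172143 between them. Next came jac11, jac1, ntrnl2 and jac4, which were not highest in that library. The rest of the 7, ntrnl4, jac6, jac9, jac8 and jac3, lay at the jac3 end. Among them lay ntrnl3, with 4 counts there and up to 4 elsewhere. Entries without a matched gene are left out of this order.

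aep1 (ENSDARG00000039099), the relative that entered the fit, did not pass the test in any comparison. It held 6 to 12 counts in DMSO, 0 to 13 at 3 nM and 2 to 19 at 10 nM, with the 19 counts in replicate 6. The groups overlapped throughout. Its log2 difference was 0.01 ± 0.60 (SE) for 3 nM against DMSO (edgeR quasi-likelihood test, adjusted p = 0.993) and 0.30 ± 0.61 for 10 nM against DMSO (adjusted p = 0.746). The gene next to jac7 on the other side, si:dkey-185m8.2, held 44 to 125 counts per library and also did not pass, at 0.14 ± 0.22 for 10 nM against DMSO (adjusted p = 0.661). Beyond jac3, ankrd53 was at -0.02 ± 0.22 (adjusted p = 0.955) and tex261 at 0.30 ± 0.13 (adjusted p = 0.134).

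The height of jac2 and jac7 in 10 nM replicate 6 was compared with that of all other genes in the same library. For each gene in the fit, log2 CPM there (prior count 2) was set against the highest of the other 17 libraries. The gap was 5.45 for jac7, rank 1 of 24053, and 4.76 for jac2, rank 3. Between them came si:dkey-7i4.24 at 5.00, and next cxcl8b.1, a neutrophil-attracting chemokine, at 4.15. Among the genes in the fit, these 4 were the only ones with a gap above 4, 41 exceeded 2, and 2607 (10.8%) exceeded 0. Genes outside the fit, such as jac3, were not ranked. The fitted 10 nM differences by which jac2 and jac7 were picked rested in part on this library, so their ranks restate that choice.

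**Figure D3:**
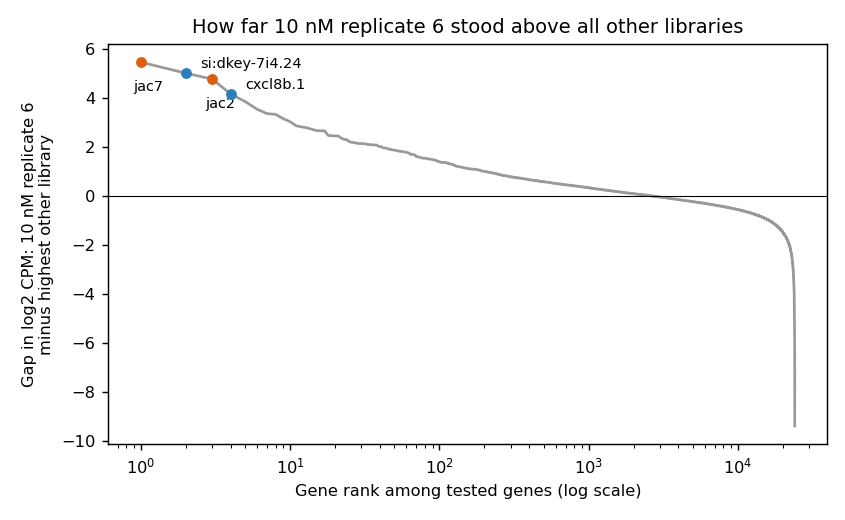
Gap in log2 CPM between 10 nM replicate 6 and the highest of the other 17 libraries for all 24053 genes in the fit, ordered by size against rank on a log axis. jac7 and jac2 (orange) hold ranks 1 and 3, with si:dkey-7i4.24 and cxcl8b.1 (blue) at ranks 2 and 4. The line crosses 0 after 2607 genes. The ranks of jac7 and jac2 restate the choice of these genes.

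Within the groups, jac2 was set beside CYP1A1 as the measure of AHR response. In DMSO both were low and Spearman's rho was 0.26 (n = 6). At 3 nM rho was 0.49, and at 10 nM it was 0.77 (n = 6 each). At 10 nM replicates 2, 4 and 3 were the lowest libraries for both genes, in that order, and replicates 1, 5 and 6 were the highest 3 for both. For jac7 the coefficients with CYP1A1 came to -0.14, 0.54 and 0.83 in the same order of groups. Without replicate 6 the 10 nM coefficients were 0.9 for jac2 and 1 for jac7 (n = 5). The range was different, however: CYP1A1 was 2444 CPM in 10 nM replicate 6 and 2518 and 2543 CPM in replicates 5 and 1, while jac2 and jac7 in replicate 6 were at least 27.2 and 44.2 times higher than there. The points share libraries and scaling, and the 3 high 10 nM libraries are those that lay apart on the first principal component. The coefficients also use the values by which jac2 and jac7 were picked. How many of all genes reach such coefficients with CYP1A1 is not given, so these are a description, and tracking of the AHR response was not tested.

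**Figure D4:**
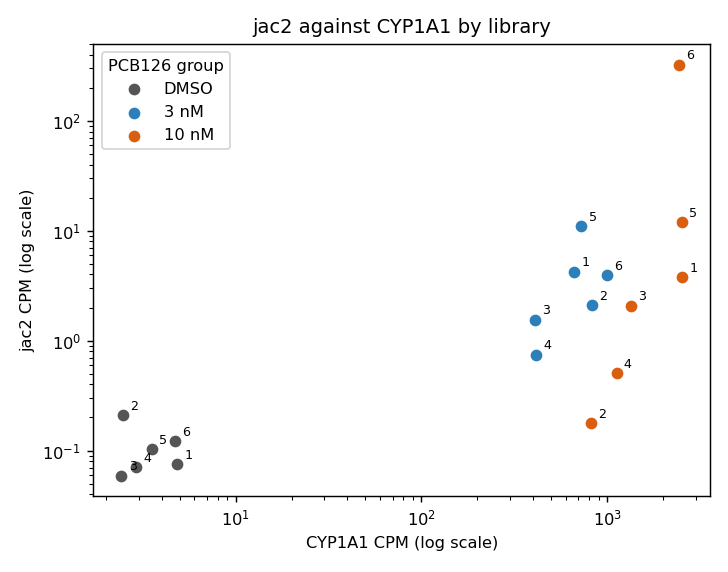
CPM of jac2 against CPM of CYP1A1, both on log axes, in the 18 libraries, coloured by group and marked with replicate numbers. The exposed libraries lie apart from DMSO on CYP1A1, 10 nM replicate 2 is the lowest of its group on both axes, and 10 nM replicate 6 is high on jac2 without a matching excess of CYP1A1.

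Across all 18 libraries jac2 and jac7 followed each other with Pearson's r of 0.81 and Spearman's rho of 0.59 in log2 CPM. Without 10 nM replicate 6, r was 0.62, and without the pair of libraries farthest out on jac2 (10 nM replicates 6 and 5) it was 0.56. The gene with the pattern most like that of jac2 was ccl34b.8, a CC-type chemokine, at r = 0.95, and it remained first without 10 nM replicate 6, at r = 0.93. si:dkey-7i4.24 came next in both cases, at 0.91 and 0.88. The other 8 of the 10 most alike were cxcl8b.1, si:dkey-78l4.1, plaua (a urokinase-type plasminogen activator), STOML3, c3a.2 (complement component C3), si:dkey-21e2.10, si:ch73-234b20.5 and ATP2A3, at 0.84 to 0.88. Without 10 nM replicate 6, the list of 10 for jac2 kept only 2 members and took in c5 (complement component C5) and CYP1A1, both at r = 0.82.

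ccl34b.8 resembled jac2 in its order of libraries and had a smaller range. Its lowest, median and highest values in DMSO were 0.355, 0.534 and 0.995 CPM. At 3 nM all 6 libraries lay above these, from 1.48 to 4.87 CPM. At 10 nM replicates 1 to 6 had 5.94, 0.354, 2.88, 1.62, 11.1 and 40.6 CPM, so that replicate 2 again lay with DMSO. si:dkey-7i4.24 ran from 1.24 to 2.23 CPM in DMSO and from 2.48 to 12.8 at 3 nM. At 10 nM its replicates 1 to 5 lay between 2.52 and 11.4 CPM and replicate 6 at 412 CPM. As these genes were chosen for their likeness to jac2, no test is given for them.

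**Figure D5:**
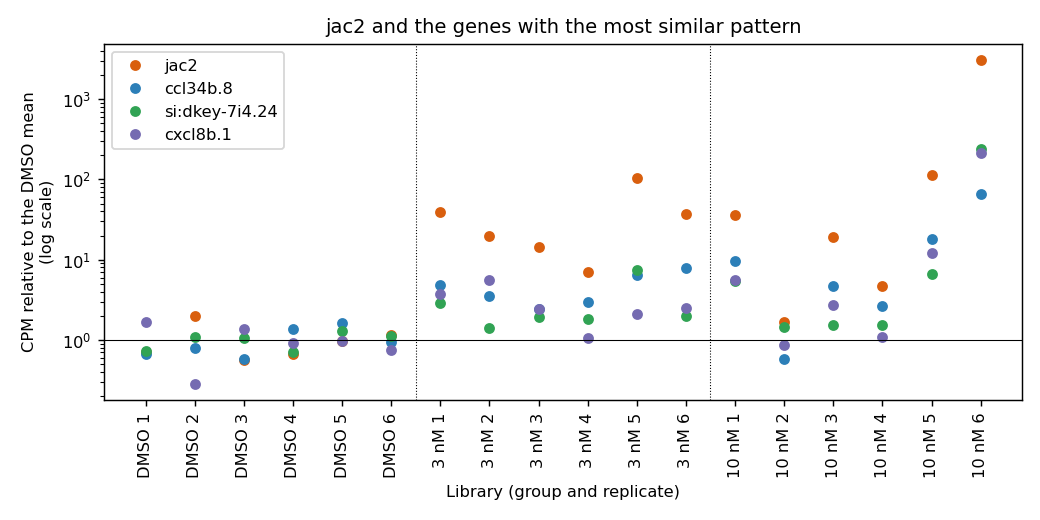
CPM of jac2, ccl34b.8, si:dkey-7i4.24 and cxcl8b.1 in each library divided by that gene's DMSO mean, on a log axis, with dotted lines between the 3 groups. All 4 genes peak in 10 nM replicate 6. The line at 1 marks the DMSO mean, and 10 nM replicate 2 lies close to the DMSO points for jac2 and ccl34b.8 and above them for si:dkey-7i4.24.

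The likeness list of jac7 rested on 10 nM replicate 6. PLCG2, a phospholipase C of immune receptor signalling, led it at r = 0.97, followed by lad1, the basement membrane anchoring protein ladinin, at 0.96. PLCG2 lay between 9.38 and 30.0 CPM in 17 libraries and at 166 in 10 nM replicate 6. lad1 lay between 3.08 and 23.0 CPM in 17 libraries and at 204 in that one. Without that library, 0 of the 10 genes stayed among the 10 most alike, whereas PLCG2 still had r = 0.83 and lad1 0.81.

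Markers of other tissues were read in the same libraries, because jacalin-type lectins of mammals are made in secretory and mucosal epithelia. The epidermis and surface epithelium list summed to 8953 CPM in 10 nM replicate 6 and to at most 5299 in the other 17 libraries. krt8, icn and krt18a.1 made up 70.2% of that sum, and 8 of the 30 listed genes in the fit were highest there, beside 10.8% of all genes. krt8, icn and krt18a.1 had medians of 1052, 179 and 342 CPM in DMSO. In 10 nM replicate 6 icn was at 2070 CPM, against at most 896 elsewhere. krt4 (954 against at most 599) and s100a10b (540 against at most 320) were also highest there. Other genes of the list were higher elsewhere: krt5 was at 219 CPM in 10 nM replicate 6 and up to 668 in another library. krt92 was at 3.54 and up to 365, and TP63 at 16.5 and up to 23.6. The goblet cell and mucus list summed to 304 CPM there, inside the range of 151 to 313 over the others, and 1 of its 14 genes was highest there. The enterocyte list summed to 189 CPM (up to 703 elsewhere) and the kidney tubule list to 57.3 CPM (up to 832 elsewhere), with 2 of 19 and 0 of 14 genes highest there, and 3 kidney genes at 0. The neutrophil and macrophage lists summed to 1601 and 506 CPM there and reached 2437 and 719 CPM elsewhere. Of these 6 lists, only that of epidermis and surface epithelium had its highest sum in 10 nM replicate 6. The sum was led by krt8, icn and krt18a.1, which DMSO testis also held, while krt5, krt92 and TP63 of that list were higher elsewhere. It is therefore not read as a sign of epidermis. The part of that list in the jac values was not tested.

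Genes of other lectin families rose in part at 10 nM. Of 31 listed lectins in the fit, 8 rose and 2 fell in 10 nM against DMSO, that is 25.8% and 6.45%, where 7.4% of all genes rose and 3.44% fell. The median log2 difference of the list was 0.46, beside 0.06 over all genes. The scavenger receptor collectin COLEC12 went from 11.4 ± 2.83 CPM in DMSO to 33.8 ± 20.8 at 10 nM (SD, n = 6 each), a log2 difference of 1.58 ± 0.31 (SE, edgeR adjusted p = 0.00779). The mannose-binding lectin mbl2 rose by 2.19 ± 0.50 (adjusted p = 0.0151), and the galectin genes lgals9l1 and lgals1l1 rose by 2.42 ± 0.55 (adjusted p = 0.0152) and 1.89 ± 0.49 (adjusted p = 0.0259). lgals9l1 came to 1.63 without 10 nM replicate 6 (adjusted p = 0.0392). lgals1l1 lost its call without 10 nM replicate 1, at 1.35 (adjusted p = 0.0757), and without DMSO replicate 1, 2 or 6 (adjusted p = 0.0565, 0.063 and 0.0536). With replicate number as a block, lgals9l1 and lgals1l1 lost their calls (adjusted p = 0.0808 and 0.0612), and COLEC12 and mbl2 kept theirs (0.0306 and 0.0307). In DMSO mbl2 and lgals1l1 were low, at 0.427 ± 0.153 and 0.563 ± 0.397 CPM (SD, n = 6). The DMSO and 10 nM ranges of these named lectins overlapped. Without 10 nM replicate 6 the list had 5 that rose and 1 that fell, with a median of 0.27, where 4.28% of all genes rose and 1.72% fell. Without the 5 libraries apart it had 0 and 0, with a median of -0.06, where 1.02% rose and 0.883% fell. Over all single libraries left out, the list count that rose ran from 3 to 10, and that of all genes from 600 to 2572. The list count was 3 without DMSO replicate 1, 2 or 6 or 10 nM replicate 1, where 862, 600, 901 and 704 of all genes rose. It was 4 without DMSO replicate 4 or 10 nM replicate 5 (917 and 658 of all genes) and 5 without DMSO replicate 5 (1089). These fits held 24236 to 24251 genes. None of the 4 named lectins passed without the 5 libraries apart, at 0.66 for COLEC12 (adjusted p = 0.101), 1.07 for mbl2 (0.176), 0.51 for lgals9l1 (0.454) and 1.12 for lgals1l1 (0.179). For 3 nM against DMSO, 0 of the 31 lectins passed, where 0.129% of all genes rose and 0.079% fell. For 10 nM against 3 nM 0 of them passed, where 0.121% rose and 0.00831% fell.

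In 10 nM replicate 6 these lectins were also often at their highest, with smaller gaps than jac2 and jac7. The list summed to 1288 CPM there, beside 646 to 1170 in the other 17 libraries, and 12 of 31 were highest there, beside 10.8% of all genes in the fit. The gap to the highest other library exceeded 2 on the log2 scale in 0 of the 31, and the median gap was -0.52. The AHR target list also holds the receptor genes ahr1a, ahr1b and ahr2 and the partner gene ARNT2. Its highest sum was there too, 4036 CPM beside at most 3827 elsewhere. Of its 17 genes 8 were highest there, ahr2 and ARNT2 among them. Another of the 8, the transcription factor gene foxq1b, at 29.7 CPM against at most 6.90 elsewhere, was the only listed gene outside the jac family with a gap above 2. Of the genes on that list, 6 of 17 rose at 3 nM against DMSO, where 0.129% of all genes rose, and 9 of 17 rose at 10 nM, where 7.4% did. The count at 10 nM was 9 with any single library left out and without the 5 libraries apart.

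The goblet cell and mucus list had 3 genes that rose and 1 that fell of 14 at 10 nM against DMSO, where 7.4% and 3.44% of all genes did. The 3 were AGR2, a disulfide isomerase of mucin-secreting cells, at 1.84 ± 0.58 (log2, SE, edgeR adjusted p = 0.0496), the mucin muc13b at 3.64 ± 1.1 (adjusted p = 0.0423) and the transcription factor CREB3L1 at 0.83 ± 0.25 (adjusted p = 0.0393). All 3 lost their call without 10 nM replicate 1, without 10 nM replicate 5 and without any 1 of DMSO replicates 2 to 6. AGR2 also lost it without 10 nM replicate 6 (1.51, adjusted p = 0.107) and without any 1 of 3 nM replicates 1 to 5. CREB3L1 and muc13b also lost it without DMSO replicate 1, and muc13b without 3 nM replicate 5. With no filter on low counts, and with replicate number as a block, all 3 lost it, and AGR2 did so with RLE in place of TMM scaling. The mucin muc5.1 fell by 0.54 on the log2 scale (adjusted p = 0.0185). In 10 nM replicate 6, AGR2 was at 72.0 CPM against 79.2 in the highest other library, and muc13b at 0.218 against 9.37. Of the epidermis list 2 of 30 rose and 1 fell, that is 6.67% and 3.33%, near the shares over all genes. Of the enterocyte list 4 of 19 rose, of the kidney tubule list 6 of 14, of the neutrophil list 6 of 16 and of the macrophage list 5 of 22, again beside 7.4% of all genes, and 0 of these fell. With 10 nM replicate 6 left out, the counts that rose were 2 for goblet cells, 2 for epidermis, 1 for enterocytes, 5 for kidney tubule, 5 for neutrophils and 4 for macrophages, where 4.28% of all genes rose. Without the 5 libraries apart they were 0, 0, 0, 0, 3 and 1 in that order, where 1.02% rose.

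These list counts also moved with other single libraries. With 1 library left out at a time, the count that rose ran from 0 to 5 for goblet cells, 0 to 4 for enterocytes, 2 to 7 for kidney tubule, 5 to 8 for neutrophils and 1 to 8 for macrophages. Over all genes the number that rose also moved in these fits, from 600 to 2572, beside 1781 with no library left out. The enterocyte count was 2 or fewer in 12 of these 18 fits. Leaving out 10 nM replicate 1 gave 0, 0, 3, 5 and 2, where 704 of all 24243 genes rose. Without 10 nM replicate 5 they were 0, 0, 2, 5 and 1, where 658 of 24242 rose. Without DMSO replicate 2 they were 0, 0, 3, 5 and 2, where 600 of 24251 rose. Without DMSO replicate 1 the epidermis count was 11 of 30, where 862 of 24243 rose.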

How the data were processed

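RNA was measured in 18 testis libraries. The authors deposited raw counts per gene for each library, in 35117 rows of which 0 name no gene. Per the submitters' processing notes, FastQC, STAR, HTSeq and edgeR were used on the build GRCz10. Per the labels' protocols the kit was stranded and single reads of 50 bases were taken. Which strand was counted and which annotation was used are not stated, so overlapping and antisense genes and close copies are uncertain.

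Counts were fitted with edgeR 4.0.16 in R 4.3.3 (filterByExpr, TMM scaling, robust quasi-likelihood F-test, group as the only term, 1 fit of 18 libraries, 15 residual degrees of freedom), which left 24053 genes. Adjusted p-values are two-sided Benjamini-Hochberg values over these genes, called under 0.05, and SE is the log2 change divided by the square root of F. DESeq2 1.42.0 was an alternative. CPM uses TMM-scaled totals. The scripts were tested on simulated data. Likeness is Pearson's r of log2 CPM (prior count 2) over 18 libraries among genes averaging at least 1 CPM. No 2 libraries were identical.

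The members, lists and rules were chosen with earlier results of these data known. Genes named were drawn from the jac genes, the 5 neighbours on each side of jac7 in RefSeq order, and CYP1A1. They also came from the 10 most alike per gene and, per list, from up to 4 called members with the smallest p. Some genes that these rules select are not named. ntrnl2, ntrnl3, ntrnl4, ankrd53, tex261, krt8, icn and krt18a.1 as leading genes, and the gap to 10 nM replicate 6, were singled out after their values were seen. The same holds for krt4, s100a10b, krt5, krt92, TP63, foxq1b, ahr2, ARNT2 and c5. Symbols come from a name table that gives some genes their human symbol in capitals.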

Additional observations from a re-analysis of the deposited data

Results flagged for a closer look

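In groups of 6 libraries, a value was singled out where its gap to the nearest other, divided by the group's range, exceeded Dixon's 95% critical value. Of 60 groups examined, 17 met this. The nominal rate of about 1 in 20, or 3, assumes independent and normally distributed values. These groups share libraries, hold counts near 0 and include genes picked for their values, so 17 is no measure of an excess. In 10 nM replicate 6 the values were 281 CPM for jac7 (next 6.36), 326 for jac2 (next 12.0), 31.9 for jac3 (next 0.775), 1.66 for jac8 (next 0.258), 0.612 for jac9 (next 0.107) and 0.393 for jac6 (next 0.0535). These 6 fell in the same library.

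At 3 nM, jac2 stood out in replicate 5 at 10.9 CPM (next 4.24), jac11 in replicate 1 at 0.272 (next 0.101), jac6 in replicate 3 at 0.0337 (next 0), jac4 in replicate 4 at 0.746 (next 0.234) and jac1 in replicate 3 at 0.202 (next 0.0412). jac1 also stood out in 10 nM replicate 4 at 0.505 CPM (next 0.0885).

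Summed marker lists stood out in 3 nM replicate 1 for other lectins at 1170 CPM (next 838), enterocytes at 703 (next 149) and kidney tubule at 90.6 (next 61.2). The goblet cell and mucus list did so in DMSO replicate 1 at 268 CPM (next 194), and the macrophage list in 3 nM replicate 2 at 377 (next 267). jac2 in 3 nM replicate 1 was 4.24 CPM, the next highest of its group.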

How the results depend on the processing

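Of the values for jac2 and jac7, the 10 nM contrasts depended on the libraries used. For 10 nM against DMSO the log2 difference of jac2 was 8.96, and 3.00 without the 5 libraries apart, and 5.00 to 9.25 with 1 library left out. That of jac7 was 6.48, and 0.70 without the 5 apart, and 2.04 to 6.80 with 1 left out. For 10 nM against 3 nM jac2 went from 3.88 to -2.35 without the 5 apart and to between -0.10 and 4.51 with 1 left out, and jac7 from 5.56 to -0.31 and to between 1.13 and 5.82. For 3 nM against DMSO, leaving out 1 library gave 4.45 to 5.38 for jac2 and 0.67 to 1.23 for jac7, and leaving out the 5 apart gave 5.35 ± 0.72 and 1.02 ± 0.40.

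With the replicate block, the log2 difference of jac2 was 6.63 for 10 nM against DMSO and 0.68 for 10 nM against 3 nM, and those of jac7 were 3.06 for 10 nM against DMSO and 2.15 for 10 nM against 3 nM. The same fit called 26, 684 and 0 genes for 3 nM against DMSO, 10 nM against DMSO and 10 nM against 3 nM. In the last, 2205 genes had an unadjusted p under 0.05. Libraries of the same number correlated between -0.486 and 0.338 in their deviations, over 0.1 in 6 of 18 pairs, so the numbers were not taken to pair fish.

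The 50 genes called for 3 nM against DMSO became 311 with DESeq2 and 25 to 55 with 1 library left out. The 2609 for 10 nM against DMSO became 4626 with DESeq2, 468 without the 5 apart (53.6% higher, beside 68.3%) and 826 to 3855 with 1 left out. The 31 for 10 nM against 3 nM became 701 with DESeq2, 64 with the robust option off, 0 without the 5 apart (1663 at unadjusted p under 0.05) and 0 to 355 with 1 left out. Without the 5 apart, the log2 differences of VIL1 (-0.06) and fxyd2 (-0.32) for 10 nM against DMSO changed sign, and neither passed. The causes were not tested. Of 10 genes most like jac2, 8 were shared with prior count 0.5, 5 with deviations from group means and 4 with Spearman's rho, the last chosen after seeing the data, as was leaving out 10 nM replicate 6 from the likeness. For jac7 these were 9, 7 and 0. Counts near the floor of 3 limit jac2 in DMSO and the 7 rare members in most libraries.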
